A study of Arabidopsis thaliana with 6 samples.

Results

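The transcripts described here are those of 10 probe sets for genes of the plant circadian clock and its evening outputs, out of 22746 probe sets on the array. They were chosen by a list of identifiers and ordered by the time of day at which each gene is known to act: CCA1 and LHY in the morning, the pseudo-response regulators through the day, TOC1 and GI in the evening, and COR27, COR28 (AT4G33980) and CCL as outputs. All 10 passed the filter on dim probe sets. The platform annotation names 4 of them (GI, COR27, CCL and, by its locus alone, AT4G33980). For CCA1 (266719_at), LHY (261569_at), PRR7 (250971_at), PRR5 (249741_at) and TOC1 (247525_at) the gene name comes from the list alone. The list gives 266720_at under PRR9, an identifier that the table analysed here does not hold. The row with that number is 266720_s_at, which has no gene in the annotation used here and whose suffix marks probes shared by more than 1 transcript, so it is described under its own identifier. It keeps the place of PRR9 in the order, and its own time of day is not known here.

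The leaves came from Arabidopsis thaliana plants that carry AmGSTF1, a glutathione transferase transgene (3 arrays), and from plants of the same ecotype, Col0, with no transgene (3 arrays). Plants of both groups were raised on compost in a room at 20 °C and a 16-hour day, from seed chilled for 72 hours at 4 °C before sowing. In both groups the 10 leaves of each replicate floated for 4 hours on water with 0.1% Tween 20, a detergent, and 0.1% acetone before freezing. The study concerns the place of this enzyme in herbicide resistance, and the comparison asks how the plant's own transcripts differ when it is present. The promoter of the transgene, the number of transgenic lines, the age of the plants and the hour of harvest do not appear among the labels used here.

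The clock of Arabidopsis is a set of transcription factors that repress one another in turn through the day. CCA1 and LHY, a pair of related MYB proteins, are made around dawn and repress evening genes such as TOC1 and GI by binding the evening element in their promoters. PRR9, PRR7, PRR5 and TOC1 follow in sequence from morning to evening and repress CCA1 and LHY. In leaves this rhythm sets the daily timing of photosynthesis, growth, cold responses and flowering.

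The arrays share 1 scale, with a median signal of 151 to 164 on the AmGSTF1 arrays and 146 to 150 on the Col0 arrays. Across the 13647 probe sets kept, arrays correlated at r = 0.963 to 0.977 within a group and at 0.932 to 0.965 between groups (n = probe sets of 1 array pair, not replicates). Replicates of a group had a median SD of 0.20 in log2 units, in AmGSTF1 and in Col0 alike. RCA, the Rubisco activase gene of green leaf, had signals of 15370 to 21336 on the AmGSTF1 arrays and 18989 to 22829 on the Col0 arrays. The transgene has no assigned probe set here, so the labels could not be checked against it.

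In AmGSTF1 leaves 5 of the 10 members, all from the afternoon and evening end of the list, were higher than in Col0 leaves. PRR5, TOC1, COR27, COR28 and CCL rose, each called and at least 2-fold higher, as were 0.989% of the probe sets kept. The probe set 266720_s_at fell. These calls were all lost with the replicate number as a block, and without AmGSTF1 replicate 1, Col0 replicate 1 or Col0 replicate 3. Without AmGSTF1 replicate 1 PRR5 and TOC1 were also under 2-fold, with log2 differences of 0.88 and 0.83. They were under 2-fold too after quantile normalization (0.96 and 0.98), median centring (0.96 and 0.96) and loess normalization (0.98 and 0.97). With a pseudocount of 64 the values were 0.93 and 0.89. PRR5 was under 2-fold with array weights (0.96) and without replicate 2 of AmGSTF1 (0.94) or Col0 (0.96). Without Col0 replicate 3 TOC1 (0.92) and CCL (0.97) were under 2-fold. The dawn pair CCA1 and LHY, the midday PRR7 and the evening GI did not pass the test. Over all probe sets 2.14% were called higher and 2.9% lower at a limma adjusted p under 0.05 (292 and 396 probe sets), or 222 and 599 after median centring of each array. The 10 members were split on the log2 scale, with 5 at differences of 1.04 to 1.63 and the others at -0.73 to 0.05. Their median of 0.55, beside 0.05 for all probe sets kept, falls in the gap and is near no member. The groups did not overlap in 5 members with AmGSTF1 above and in 1 with AmGSTF1 below, beside 14.5% and 13.1% of all probe sets kept. The genes were proposed with earlier results of these data known, so these counts describe the genes and are not independent evidence about the clock as a whole. In whole leaves, fewer cells of a type and less RNA per cell cannot be told apart. The labels used here do not give the hour of harvest. For genes that follow the time of day, it therefore cannot be told apart from the transgene.

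**Figure D1:**
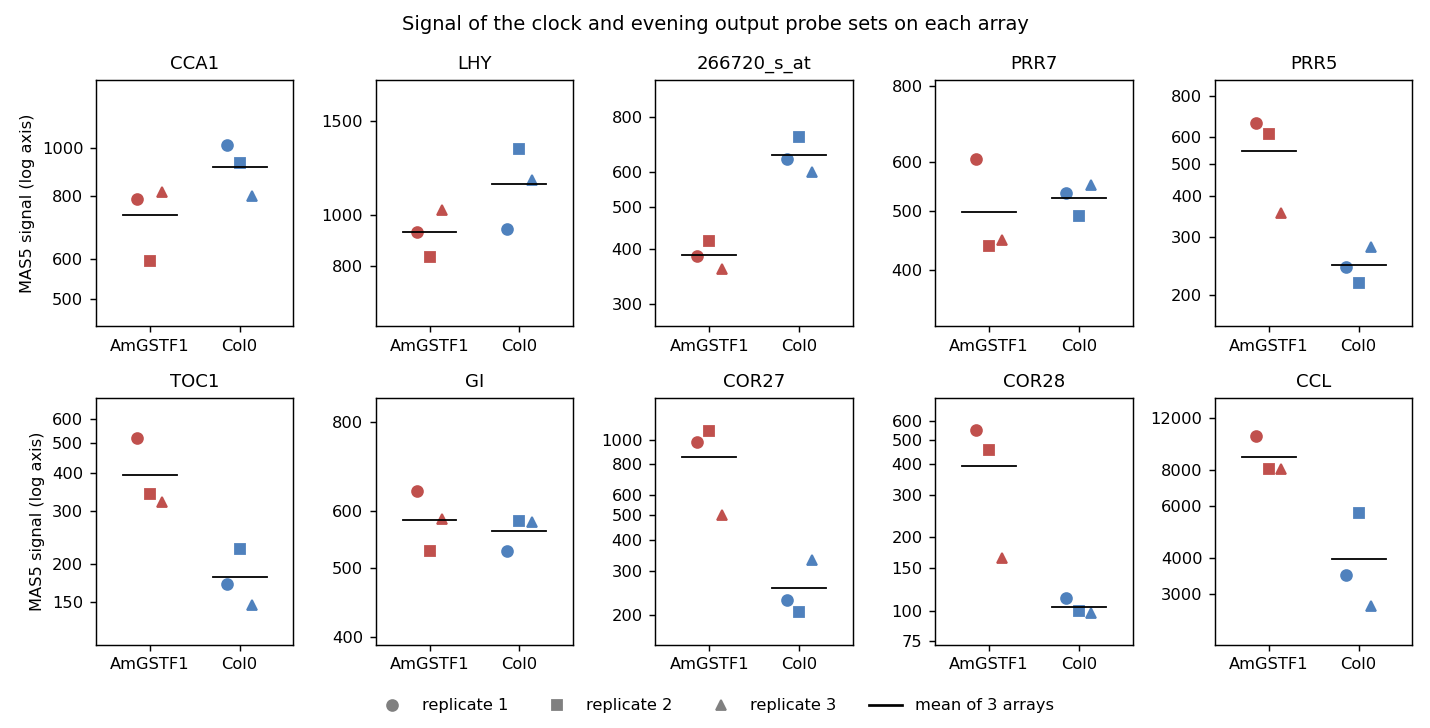
MAS5 signal on a logarithmic axis for the 10 probe sets, in panels from morning to evening, with AmGSTF1 arrays in red on the left and Col0 arrays in blue on the right of each panel. Symbols mark the replicate number and black lines the mean of 3 arrays, and the groups are apart for 266720_s_at, PRR5, TOC1, COR27, COR28 and CCL.

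CCA1, the MYB repressor that with LHY marks dawn, had signals of 788, 596 and 816 in AmGSTF1 leaves, against 1011, 931 and 801 in Col0 leaves. The third AmGSTF1 array lay just above the lowest Col0 array, so the groups overlapped. The log2 difference was -0.32 (95% interval -0.69 to 0.06, limma adjusted p = 0.286). LHY, the close relative of CCA1, had signals of 927, 834 and 1019 in AmGSTF1 leaves, against 940, 1326 and 1163 in Col0 leaves. Here too the groups overlapped, through the first Col0 array. The difference of LHY was -0.29 (-0.65 to 0.08, adjusted p = 0.320). Neither member was called, and the intervals are wide enough to hold a fall of moderate size as well as no change.

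The probe set 266720_s_at, at the place of PRR9 in the order, fell to 386, 417 and 360 in AmGSTF1 leaves, against 643, 722 and 601 in Col0 leaves. All AmGSTF1 arrays lay below all Col0 arrays, with a small spread in each group. Its log2 difference was -0.73 (95% interval -1.05 to -0.41, adjusted p = 0.0259). PRR7, a repressor of CCA1 and LHY that acts around midday, had signals of 606, 437 and 447 in AmGSTF1 leaves and 534, 490 and 551 in Col0 leaves. The first AmGSTF1 array was the highest of the 6 and the other two the lowest. The difference of PRR7 was -0.09 (-0.46 to 0.28, adjusted p = 0.783).

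PRR5, the pseudo-response regulator of the afternoon, rose 2.06-fold on the log2(signal + 16) scale. Its signals were 664, 614 and 354 in AmGSTF1 leaves, against 243, 218 and 281 in Col0 leaves. The third AmGSTF1 array was much nearer to the Col0 arrays than the other two were. The log2 difference was 1.05 (95% interval 0.53 to 1.57, adjusted p = 0.0358), larger than that of 98.4% of the probe sets kept. PRR5 and 266720_s_at lay on opposite sides of zero, with PRR7 between them. Whether these members differ from each other in their response was not tested.

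TOC1, the evening repressor of CCA1 and LHY and the founding member of the pseudo-response regulator family, rose 2.06-fold. Its signals were 521, 341 and 320 in AmGSTF1 leaves, against 171, 225 and 147 in Col0 leaves. Every AmGSTF1 array lay above every Col0 array. The log2 difference of TOC1 was 1.04 (95% interval 0.54 to 1.55, adjusted p = 0.0325). GI, an evening protein that stabilises the clock F-box protein ZTL and promotes flowering in long days, had signals of 639, 527 and 585 in AmGSTF1 leaves and 527, 580 and 580 in Col0 leaves. The lowest arrays of the groups were level with each other. The difference of GI was 0.05 (-0.27 to 0.37, adjusted p = 0.876), so a 2-fold rise like that of TOC1 lay outside its interval.

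The largest rises were those of COR27 and COR28, related cold-regulated genes whose proteins lack a known DNA-binding domain, are known to repress PRR5 and TOC1, and act in flowering and freezing tolerance. COR27 had signals of 980, 1084 and 500 in AmGSTF1 leaves, against 231, 206 and 331 in Col0 leaves. The groups were apart, with AmGSTF1 replicate 3 the nearest to Col0. COR27 rose 3.10-fold on the log2(signal + 16) scale, a log2 difference of 1.63 (95% interval 0.99 to 2.27, adjusted p = 0.0205), and 48 of the 13647 probe sets had a larger rise.

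COR28 had signals of 551, 456 and 165 in AmGSTF1 leaves, against 113, 99.6 and 98.4 in Col0 leaves. The Col0 arrays were nearly level and not far above the signal below which 40% of all probe sets lay (68.7 to 84.5 on the 6 arrays), and the third AmGSTF1 array was close to them. COR28 rose 3.05-fold, a log2 difference of 1.61 (95% interval 0.79 to 2.43, adjusted p = 0.0388). Because its Col0 signal was low, the size depended on the pseudocount, and the difference was 1.73 with a pseudocount of 1 and 1.32 with 64. COR28 lost its call with no filter on dim probe sets (adjusted p = 0.0804), without the intensity trend (0.0584), with the replicate number as a block (0.0582) and after quantile or loess normalization between arrays (0.0506 and 0.0510).

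CCL, a gene known for an unstable transcript whose decay rate follows the clock, had signals of 10423, 8076 and 8028 in AmGSTF1 leaves, against 3482, 5712 and 2726 in Col0 leaves. The second Col0 array stood above the others of its group but below every AmGSTF1 array. CCL rose 2.31-fold, a log2 difference of 1.21 (95% interval 0.66 to 1.76, adjusted p = 0.0270).

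**Figure D2:**
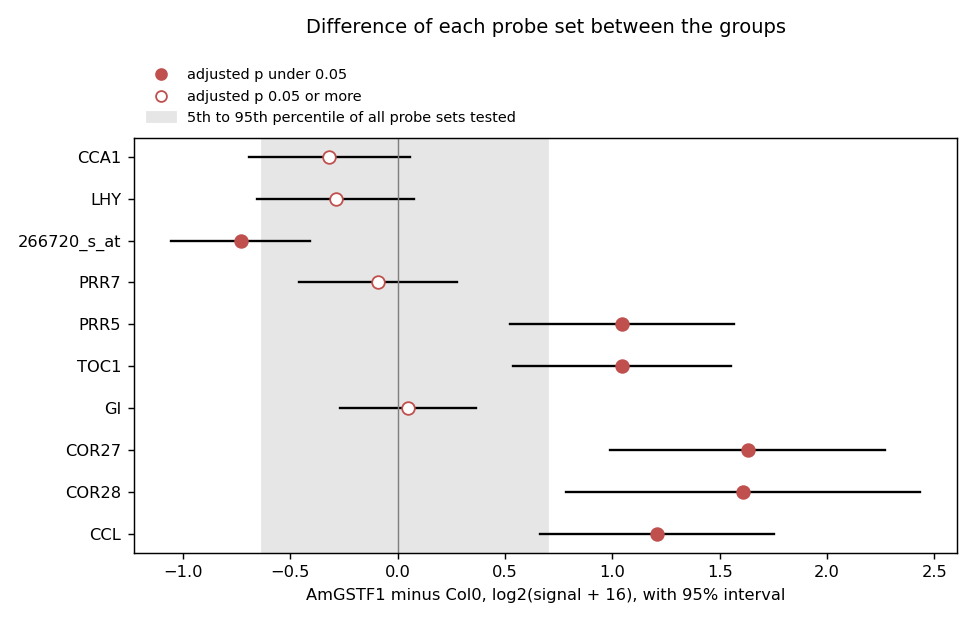
Difference between AmGSTF1 and Col0 in log2(signal + 16) for each probe set, ordered from morning at the top to evening outputs at the bottom, with 95% limma intervals. Filled points passed an adjusted p of 0.05, and the grey band spans the 5th to 95th percentile of all probe sets tested (-0.63 to 0.70); the 5 called rises lie to the right of the band and 266720_s_at lies just to its left.

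Read array by array in clock order, the 3 AmGSTF1 arrays lay below the Col0 mean at CCA1, LHY and 266720_s_at and above it at PRR5, TOC1 and the outputs, by different amounts. Relative to the Col0 mean, CCA1 stood at -0.20, -0.60 and -0.15 on the log2 scale in AmGSTF1 replicates 1, 2 and 3, and LHY at -0.28, -0.43 and -0.15. The 266720_s_at values were -0.74, -0.63 and -0.83. PRR5 stood at 1.37, 1.27 and 0.50, and TOC1 at 1.47, 0.88 and 0.79. For the outputs the values were 1.90, 2.04 and 0.95 for COR27, 2.25, 1.98 and 0.60 for COR28, and 1.46, 1.09 and 1.08 for CCL. AmGSTF1 replicate 3 was the lowest AmGSTF1 array for all 5 members that rose, while over all probe sets kept it was the lowest in 30.1%. AmGSTF1 replicate 1 was the highest for 4 of these 5, and over all probe sets kept it was the highest in 33.6%. In Col0 the lowest array of these 5 members was replicate 3 for 3 of them and replicate 2 for 2. GI deviated from the Col0 mean by at most 0.18 on any array.

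**Figure D3:**
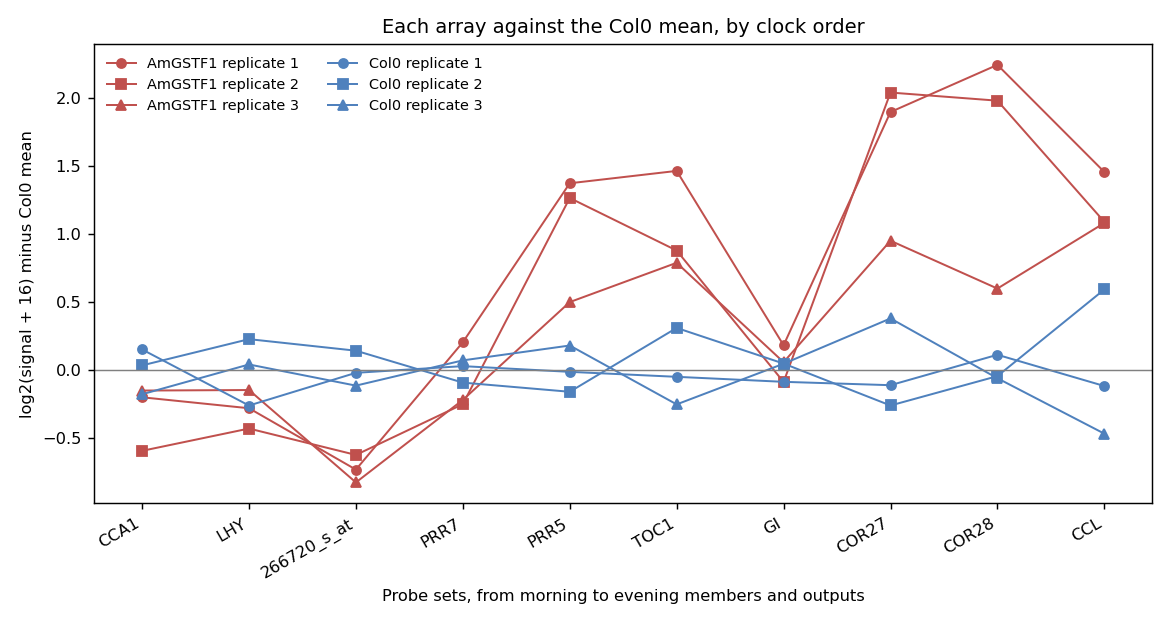
log2(signal + 16) of each array minus the mean of the Col0 arrays, for the 10 probe sets in clock order, with AmGSTF1 arrays in red, Col0 arrays in blue and symbols for the replicate. The red lines lie below the Col0 mean at CCA1, LHY and 266720_s_at and between 0.50 and 2.25 above it at PRR5, TOC1, COR27, COR28 and CCL.

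The spread between replicates differed widely among the genes. COR28 had an SD of 0.89 on the log2 scale in AmGSTF1 leaves and 0.10 in Col0 leaves (n = 3 each), and 99.1% of the probe sets kept had a smaller SD in AmGSTF1. COR27 followed with 0.59 and 0.34, PRR5 with 0.48 and 0.17 and TOC1 with 0.37 and 0.29. CCL went the other way, with 0.21 in AmGSTF1 and 0.54 in Col0. The probe set 266720_s_at had an SD of 0.10 in AmGSTF1 and 0.13 in Col0. In all, 7 of the 10 members had the larger SD in AmGSTF1, beside 49.2% of the probe sets kept.

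With no filter on dim probe sets the calls of PRR5, TOC1 and CCL were lost as well (adjusted p = 0.0684, 0.0684 and 0.0547). PRR5 and CCL were not called either when the intensity trend was dropped (adjusted p = 0.0552 and 0.0506). With the replicate block 0 of the 6 were called (0.0582 to 0.0786). All 6 calls also depended on single arrays. Without AmGSTF1 replicate 1, Col0 replicate 1 or Col0 replicate 3, 0 of the 6 were called (adjusted p = 0.105 to 0.155, 0.0993 to 0.125 and 0.0685 to 0.123), and over all probe sets 0.125%, 0.0806% and 0.0953% were still called in either direction. Without AmGSTF1 replicate 2 the calls of PRR5 and COR28 were lost (0.0575 and 0.0643), and likewise without Col0 replicate 2 (0.0587 and 0.0583), although 7.83% and 8.3% of all probe sets were then called. Without AmGSTF1 replicate 3 PRR5, COR27 and COR28 were called with larger differences of 1.32, 1.97 and 2.11, while 266720_s_at, TOC1 and CCL were lost (0.0854, 0.0570 and 0.0631) and 1.84% of all probe sets were called. The log2 differences themselves ranged over the 6 fits from 0.88 to 1.32 for PRR5, 0.83 to 1.20 for TOC1, 1.42 to 1.97 for COR27, 1.29 to 2.11 for COR28, 0.97 to 1.51 for CCL and -0.79 to -0.66 for 266720_s_at.

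**Figure D4:**
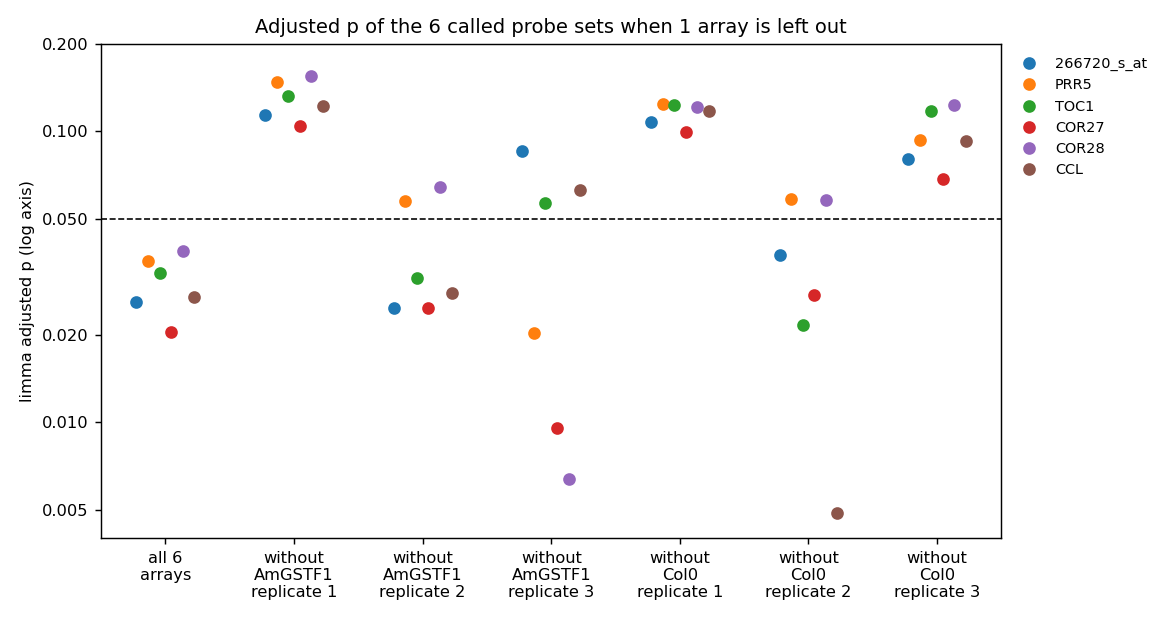
limma adjusted p on a logarithmic axis for the 6 called probe sets, with all 6 arrays at the left and then with each array left out. The dashed line is the threshold of 0.05, and every point lies above it without AmGSTF1 replicate 1, Col0 replicate 1 or Col0 replicate 3.

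Other clock genes and their inputs and outputs could be read only in small part. Of 82 further genes in 5 lists, 10 had a probe set with 1 gene in the annotation and 9 passed the filter. With limma 0 of the 9 were called higher and 0 lower, 2 had an unadjusted p under 0.05, beside 23.3% of all probe sets kept, and the median difference of the 9 was -0.06. Among transcription factors, AT4G01280 (RVE5), a MYB-like relative of CCA1 and LHY, had signals of 122, 148 and 138 in AmGSTF1 leaves, against 212, 235 and 239 in Col0 leaves. The groups of RVE5 were clearly apart, and its difference of -0.69 (95% interval -1.08 to -0.30) narrowly missed the threshold (adjusted p = 0.0527). It passed under quantile, median and loess scaling, without the intensity trend and with array weights (0.0288 to 0.0464), but in 0 of the 6 fits without 1 array. AT5G52660 (RVE6), of the same family, differed by 0.16 (-0.17 to 0.49, adjusted p = 0.555). These were the 2 measured of 18 genes in that list.

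Of 15 genes that act on clock proteins or their expression, TIC differed by 0.09 (-0.29 to 0.47) and XCT by -0.16 (-0.65 to 0.34), and FIO1 was too dim to be tested. The single measured clock output of 23 listed was AT1G69570 (CDF5), a repressor of CONSTANS, at 0.05 (-0.42 to 0.52). In the light input list of 14, HYH, a bZIP factor that acts with HY5 in light signalling, differed by -0.46 (-0.91 to 0.00, adjusted p = 0.215), with signals of 367, 415 and 476 in AmGSTF1 leaves and 482, 789 and 507 in Col0 leaves. The AmGSTF1 arrays lay below the Col0 arrays by a narrow margin.

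Because COR27 and COR28 also respond to cold, 12 cold-response genes were listed, of which 3 were measured. COR47, a dehydrin gene, had signals of 9992, 12048 and 6686 in AmGSTF1 leaves, against 6722, 6680 and 5986 in Col0 leaves. The third AmGSTF1 array lay within the Col0 range. The difference of COR47 was 0.53 (0.08 to 0.97, adjusted p = 0.149), and it passed without AmGSTF1 replicate 3 (0.76, adjusted p = 0.0496). COR15A and COR15B, which encode chloroplast proteins that protect membranes during freezing, differed by -0.06 (-0.42 to 0.31) and -0.27 (-0.80 to 0.25). A rise of the size seen in COR27 lay outside the intervals of these 3, and the other listed genes could not be read. Whether a cold response has a part in the values of COR27 and COR28 was not tested.

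The genes whose profile over the 6 arrays was most like the mean of COR27, COR28 and CCL were AT2G38465, AT2G36410, AT1G22570, AT1G06700 and TMT1, a sugar transporter of the vacuole membrane, with Pearson r of 0.989, 0.988, 0.986, 0.985 and 0.983. All 5 had AmGSTF1 above Col0 without overlap, as had 14.5% of all probe sets kept. Picking genes by likeness to members set apart in the same way made this likely. Of the 5, 2 were called higher, AT1G22570 (1.68, limma adjusted p = 0.0103) and TMT1 (0.71, 0.0259), beside 2.14% of all probe sets kept. The same picking bears on this count. Of the 7351 named probe sets compared, 194 reached r over 0.9. For deviations from the group means, the r of the 5 genes was 0.894 to 0.978. The profile of CCA1 and LHY was most like that of AT2G44060, AT2G15580, AT2G25670, AT3G06570 and AT4G26870 (r = 0.978, 0.975, 0.972, 0.970 and 0.970), and 58 probe sets reached r over 0.9. Of these 5 genes 0 were called, beside 2.14% called higher and 2.9% called lower of all probe sets kept. AT2G15580, AT2G25670 and AT4G26870 had AmGSTF1 below Col0 without overlap, as had 13.1% of all probe sets kept. These values describe 6 arrays in 2 groups that were set apart by the same contrast, and single arrays weigh heavily on them.

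Markers of other tissues and cell types were read beside these results. Of 33 marker genes in 7 lists, 5 were measured. Of these 0 were called, beside 2.14% called higher and 2.9% called lower of all probe sets kept. The root gene PYK10 had low signals on all arrays, 79.8, 173 and 63.2 in AmGSTF1 leaves and 53.2, 38.5 and 85.9 in Col0 leaves, whereas NAI1, a transcription factor needed for the endoplasmic reticulum bodies that hold PYK10, had signals of 70.4 to 128 in AmGSTF1 leaves and 129 to 280 in Col0 leaves (difference -0.79, adjusted p = 0.154). The guard cell regulator FMA, known as FAMA, differed by -0.55 (60.0 to 96.3 in AmGSTF1, 107 to 127 in Col0, adjusted p = 0.201) and the vascular SWEET11 by 0.08. NAI1 and FMA both had AmGSTF1 below Col0 without overlap, as had 13.1% of all probe sets kept. The part of NAI1 and FMA in the results was not tested, and the epidermis, flower and cell division lists had 0 measured genes.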

How the data were processed

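The authors deposited MAS5 signal intensities, 1 linear value per probe set and array, which per the submitters' processing notes come from Affymetrix Expression Console 1.1. The mean after trimming 2% at each end was 495 to 496 on all 6 arrays, so no further normalization was applied. Detection calls were not used here, and the number of arrays limits the precision. From these signals log2(signal + 16) was computed, the 40% of probe sets with the lowest mean were left out, and the 13647 kept were compared in R 4.3.3 by limma 3.58.1 (linear model, then eBayes with its trend option, 3 arrays a group, no replicate term). A probe set was called at a Benjamini-Hochberg adjusted p under 0.05 over all probe sets kept. Tests are two-sided, and folds of dim probe sets come out too small on this scale. An exact permutation test of 3 against 3 cannot go below p = 0.1 and was not run. The steps were also run on simulated data, drawn with independent noise for each probe set and array. Those data held no array or replicate effect, so they cannot show how far the calls here hold.

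Groups come from the transgene each label gives, and the labels call the replicates biological. Genes were named through the platform annotation (13513 probe sets with 1 gene, 503 with several, 8730 unnamed here) and the RefSeq table of TAIR10.1. A listed gene was read by its brightest probe set. The members and lists were chosen with earlier results of these data known. Named are all members, of each list the called genes and the 2 with the smallest p, and the 5 genes most like each of 2 profiles; other listed genes are named for completeness. Alternatives were other pseudocounts, filters, normalizations, eBayes settings, array weights, a replicate block, a threshold of 0.1 and leaving out each array. A count without 266720_s_at was added after the data were seen. Promoter motifs were not analysed here. Figures were drawn with Python 3.11.15.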

Additional observations from a re-analysis of the deposited data

How the results depend on the processing

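Members called higher (5) numbered 1 with no filter on dim probe sets (COR27), 2 without the intensity trend (COR27 and TOC1), 0 with the replicate block and 0 to 3 when 1 array was left out. Members called lower (1) numbered 0 with the block, 0 without 266720_s_at, and 0 to 1 when 1 array was left out. Calls over all probe sets (292 higher and 396 lower) numbered 123 and 213 with no filter, 192 and 237 without the trend, 814 and 827 with array weights, 745 and 777 at an adjusted p under 0.1, 40 and 38 with the block, and 6 to 603 and 5 to 566 when 1 array was left out; 599 were lower after median centring. With no filter more probe sets are tested, and the block and each omitted array leave fewer residual degrees of freedom. Calls numbered 503 higher and 566 lower without AmGSTF1 replicate 2, and 603 and 530 without Col0 replicate 2. The cause of these changes was not tested. Of the 9 further listed genes tested 0 were called higher, or 0 to 1 when 1 array was left out (COR47, from the cold-response list). Called lower were 0, or 1 (RVE5) under quantile, median or loess scaling, without the trend, with array weights and at 0.1. Small differences turned sign: GI to -0.0402 after median centring (-0.0175 to 0.118 over single arrays left out), TIC to -0.0021 after median centring (-0.0809 to 0.193), CDF5 to -0.0181, -0.0353 and -0.0233 under quantile, median and loess scaling (-0.0979 to 0.201), and COR15A to 0.0807 under loess (-0.247 to 0.0639). No scaling moved the median of all probe sets by over 0.1.

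The labels do not say whether equal replicate numbers mark arrays handled together, and 3 arrays a group cannot decide it. Arrays of equal number deviated from their own group's mean with correlations of 0.146, -0.027 and -0.050 across probe sets. The value of replicate 1 was the highest of all pairs, while replicates 2 and 3 did not correlate best with their own number. With the block the adjusted p of the 6 called members was 0.0582 to 0.0786, with the same differences.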

Other observations

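The genes next to the clock members on the chromosome were looked at after the data were seen. Of 36 protein-coding genes within 2 places of 9 members, 13 had a kept probe set with 1 gene. With limma 2 were called higher and 0 lower, beside 2.14% and 2.9% of all probe sets, and their differences ranged from 0.01 to 2.43. AT5G24490, 2 places from PRR5, differed by 2.43 on the log2 scale (adjusted p = 0.0362), and AT3G26720, 2 places from CCL, by 1.24 (0.0270). PRR5 itself differed by 1.05 and CCL by 1.21. AT5G24460, the direct neighbour of PRR5 on 1 side, differed by 0.12 and AT3G26730, the direct neighbour of CCL, by 0.22, and neither was called.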
